A study of Mus musculus with 5 samples.

Results

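The genes described here are those of DNA damage signalling and DNA repair. They were taken from a fixed list of 52 names that covers the damage checkpoint, homologous recombination, the Fanconi anaemia pathway, end joining, mismatch repair, excision repair and direct reversal. Of the 52 genes, 50 were measured by a probe set that carried their symbol alone, out of 19938 genes tested in all. A gene with several such probe sets is represented by the one of highest mean across the 5 arrays. The ubiquitin ligase gene Rnf8 was carried by 1 probe set that it shares with another symbol, and the recombination gene Xrcc2 matched no probe set of the table, so no value is given for either.

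The samples were livers of male mice about 10 months old, each hybridised to a whole-transcript Affymetrix array. The 2 controls were normal livers of Hdac3FL/+; AlbCre+ mice, which carry a floxed and a wild-type allele of the histone deacetylase gene Hdac3. The 3 other samples were liver tumours of Hdac3FL/-; AlbCre+ mice, in which the floxed allele is paired with a null allele. In all mice Cre was driven by the albumin promoter and so was expressed in hepatocytes. Other liver cells keep their Hdac3 alleles and control hepatocytes keep the wild-type allele only. Every null sample was a tumour and every control was normal tissue, so genotype and tumour cannot be told apart. Genome stability is named in the title of the study, and the comparison asks whether transcripts of the repair pathways differ between these tissues.

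DNA repair is divided among pathways that each recognise a kind of lesion. Breaks are detected by the kinases ATM and ATR and are rejoined either directly by end joining or from a sister copy by homologous recombination, while crosslinks between strands are released by the Fanconi anaemia proteins. Mismatch repair corrects errors of replication, excision repair replaces damaged bases or nucleotides, and MGMT strips alkyl groups from guanine. Several of these genes are transcribed mainly in dividing cells, and resting adult hepatocytes rarely divide.

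Values are on the deposited log2 scale, where a difference of 1 is a 2-fold change, and all differences are tumours minus controls. Hdac3 itself was lower in every tumour than in the controls, by 1.62 on the log2 scale (SE 0.13; limma adjusted p = 0.00298, or 0.0505 without control 1 and 0.0663 without control 2). Array medians lay between 5.66 and 5.77. The liver label was borne out by Alb, which stood between 12.36 and 12.85 in all 5 arrays. Of 14 measured hepatocyte markers, 13 did not pass the test and 1 fell, but the list was not constant. The mean was lower in the tumours for 10, and all tumours lay below the controls for 5 and above them for 1. Pck1 lay −0.32, −3.44 and −3.46 from its control mean in tumours 1, 2 and 3. The summed level of the list was 16.34 in both controls and 16.29, 16.13 and 16.05 in the tumours. The macrophage marker list (15 measured, 8 risen) had a median difference of 2.10. Its summed level was 10.83 and 11.23 in the controls, against 13.37, 12.64 and 13.52 in the tumours. Of the 15, 13 had a higher mean, but the rise was not uniform. In tumours 1, 2 and 3, Clec4f lay 1.59, −1.32 and −2.66 from its control mean. Vsig4 lay at 2.39, −0.11 and −2.90 and Cd5l at 2.60, 0.28 and −1.79. The summed level of 8 T cell markers was 7.83 and 7.80 in the controls and 8.30, 8.28 and 9.67 in the tumours. The arrays hold whole tissue, so fewer cells of a type and less RNA per cell cannot be told apart, and the part of these cells in the results below was not tested.

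The tumours held less transcript of 4 repair genes and more of 1. Fancl, the ubiquitin ligase of the Fanconi anaemia core complex, Msh3 and Pms1 of mismatch repair, and Mgmt, the alkyltransferase, fell by between 0.93 and 1.34 on the log2 scale. Ddb1, which recognises damaged nucleotides with Ddb2 and is an adaptor of cullin ubiquitin ligases, rose by 0.999. The other 45 measured members did not pass limma's test at an adjusted p of 0.05, over all genes tested. These 5 of 50 calls are 10% of the members, and 10.6% of all genes tested were called (5.6% risen and 4.96% fallen), so the share of changed genes among the members was close to that of the whole array. At an unadjusted p of 0.05, 18 members differed, which is 36% against 25.2% of all genes. Of these, 12 were higher (24%, against 12.9% of all genes) and 6 lower (12%, against 12.3%). For 29 members the ranges of the groups were separate (58%, against 44.2% of all genes). The tumours were above the controls for 18 of them (36%, against 21.1% of all genes) and below for 11 (22%, against 23.1%). A higher mean in the tumours was found for 34 members (68%, against 47.1% of all genes), and 12 had an adjusted p under 0.1 (24%, against 16.7%). No member was called without control 1 or without control 2, where limma called 0.647% and 0.542% of all genes. Without tumour 1, 4 rose and 4 fell (16% of the members, against 10.1% of all genes). Without tumour 2, 0 rose and 2 fell (4%, against 6.35%), and without tumour 3, 1 rose and 5 fell (12%, against 13.6%).

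The 250 bases before the annotated starts of the 5 called genes are shown to place them, since their calls are the results that stand out singly. They are RefSeq sequences of mouse build GRCm38.p6, read 5′ to 3′ along each gene's strand. Capitals mark matches on either strand to an E2F motif (searched as TTTCCCGC, TTTGGCGC, TTTGCCGC and TTTCGCGC), an NRF1 motif (GCATGCGC) or a CCAAT box.
Fancl, chr11:26386834-26387083, plus strand: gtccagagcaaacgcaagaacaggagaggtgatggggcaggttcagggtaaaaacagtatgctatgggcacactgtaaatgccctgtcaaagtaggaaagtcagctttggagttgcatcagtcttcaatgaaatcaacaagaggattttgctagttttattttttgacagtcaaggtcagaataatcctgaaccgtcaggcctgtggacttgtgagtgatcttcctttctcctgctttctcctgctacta
Msh3, chr13:92355004-92355253, minus strand: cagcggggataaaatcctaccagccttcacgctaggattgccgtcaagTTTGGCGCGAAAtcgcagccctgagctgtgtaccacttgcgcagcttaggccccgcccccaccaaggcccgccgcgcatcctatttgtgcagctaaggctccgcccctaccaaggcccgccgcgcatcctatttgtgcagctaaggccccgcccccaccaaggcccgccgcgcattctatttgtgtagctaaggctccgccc
Pms1, chr1:53297029-53297278, minus strand: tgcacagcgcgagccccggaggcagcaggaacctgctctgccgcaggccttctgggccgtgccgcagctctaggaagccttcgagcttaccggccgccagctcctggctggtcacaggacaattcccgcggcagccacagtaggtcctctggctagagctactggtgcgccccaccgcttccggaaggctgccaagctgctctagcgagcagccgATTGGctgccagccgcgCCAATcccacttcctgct
Mgmt, chr7:136894336-136894585, plus strand: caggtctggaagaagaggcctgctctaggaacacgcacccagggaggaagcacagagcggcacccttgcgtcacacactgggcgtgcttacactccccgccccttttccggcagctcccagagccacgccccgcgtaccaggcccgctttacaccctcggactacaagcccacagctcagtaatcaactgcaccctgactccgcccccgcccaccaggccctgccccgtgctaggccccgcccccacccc
Ddb1, chr19:10605347-10605596, plus strand: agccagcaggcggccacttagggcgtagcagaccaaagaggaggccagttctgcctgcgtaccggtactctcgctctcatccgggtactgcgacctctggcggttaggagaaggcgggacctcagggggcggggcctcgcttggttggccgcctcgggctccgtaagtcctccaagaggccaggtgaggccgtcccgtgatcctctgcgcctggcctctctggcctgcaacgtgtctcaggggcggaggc
Msh3 held 2 overlapping E2F matches and Pms1 held 2 CCAAT boxes, and none of these motifs was found before the shown starts of Fancl, Mgmt and Ddb1. Mgmt has a further annotated start, which is not shown. The Fancl stretch was poor in CpG, with 2 CpG dinucleotides and 44.4% G and C, against 15 to 20 CpG dinucleotides and 62.8% to 67.2% in the stretches shown for the other called genes. Promoter entries of 300 bases (250 before and 50 after the start, first listed start of a gene) were matched for 43 measured members. An E2F match was present in 8 of them (18.6%) and in 3.08% of the 15614 promoters of genes on the array. An NRF1 match was present in 5 (11.6% and 3.9%) and a CCAAT box in 24 (55.8% and 38.2%). Member promoters also held more CpG (median 22, against 15) and more G and C (60%, against 57.7%). The E2F and NRF1 motifs as searched contain CpG, and matches in excess of this composition were not tested. The members with an E2F match were Chek2, Mdc1, Brca2, Bard1, Rad51c, Xrcc6, Msh3 and Msh6, and their median difference was 0.33, against 0.10 for the other matched members. The order was the opposite for the other motifs, with medians of 0.10 with and 0.24 without an NRF1 match, and of 0.08 with and 0.37 without a CCAAT box. Over all matched promoters of the array, the medians lay between −0.04 and 0.01 with or without each motif. Of the 8 members with an E2F match, Msh3 passed the test and moved down. A match describes letters in this window and is not a measured binding site.

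In mismatch repair 2 of 4 measured members fell and the remaining 2 did not pass the test. Msh3 codes for the MutS subunit that recognises loops of unpaired bases. The controls had log2 values of 7.20 and 7.10, and tumours 1, 2 and 3 had 6.16, 5.93 and 5.93. The tumours were all lower than the controls and differed among themselves by 0.23. The difference was −1.15 (SE 0.13, 95% confidence interval −1.48 to −0.82, n = 2 and 3), a level 2.21-fold lower (limma adjusted p = 0.00734). Msh6, the MutS subunit that recognises mispaired bases and competes with Msh3 for a common partner, did not pass. Its controls had 6.54 and 6.38 and its tumours 6.39, 6.59 and 7.13, which overlapped (difference 0.24, 95% confidence interval −0.34 to 0.82; limma adjusted p = 0.61). Within each array, the log2 ratio of Msh3 to Msh6 stood at −0.92, −1.35 and −1.89 from its control mean in tumours 1, 2 and 3, and at −0.03 and 0.03 in the controls.

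Pms1, a MutL subunit whose role in repair is less well defined than that of Pms2, had control values of 6.52 and 6.95 and tumour values of 5.89, 5.51 and 6.01. The groups did not overlap, but the controls lay 0.43 apart and the tumours up to 0.50. The difference was −0.93 (SE 0.21, 95% confidence interval −1.45 to −0.41; limma adjusted p = 0.0462). Pms2, the MutL subunit with the nuclease activity of mismatch repair, overlapped between the groups, with a difference of 0.02 (95% confidence interval −0.50 to 0.55; limma adjusted p = 0.968). The log2 ratio of Pms1 to Pms2 stood at −0.73, −0.99 and −1.14 from its control mean in the 3 tumours, beyond the controls at −0.23 and 0.23. The Msh3 call was lost without control 1 or control 2 (limma adjusted p = 0.103 and 0.0924). The Pms1 call was lost without either control (0.153 and 0.299), without tumour 1 (0.0739) and without tumour 2 (0.0931).

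**Figure D1:**
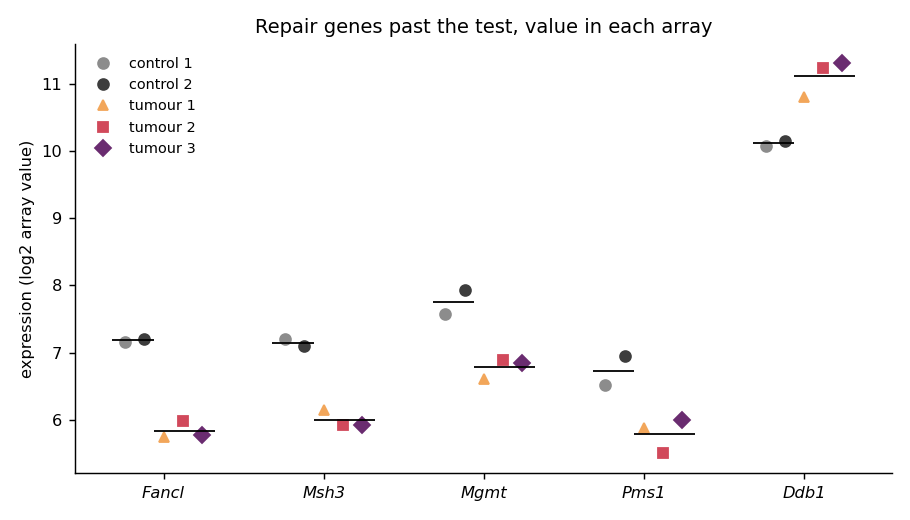
Log2 array value of each repair gene past the test, with 1 point per array and horizontal bars at the mean of the 2 control livers and of the 3 tumours. The tumours lie below both controls for Fancl, Msh3, Mgmt and Pms1 and above them for Ddb1.

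In the Fanconi anaemia pathway 1 gene fell and the targets of its product did not pass the test. Fancl, which attaches ubiquitin to the Fancd2 and Fanci proteins in the step that activates the pathway, had values of 7.16 and 7.21 in the controls and 5.75, 5.99 and 5.79 in the tumours. No tumour came within a log2 unit of a control. The difference was −1.34 (SE 0.13, 95% confidence interval −1.66 to −1.02, n = 2 and 3), a level 2.53-fold lower and the lowest adjusted p among the members (limma adjusted p = 0.00455). The call was lost without control 1 or control 2 (limma adjusted p = 0.071 and 0.0842). Fancc, another subunit of the core complex, was also lower in every tumour, with 5.48 and 5.36 in the controls and 4.93, 4.53 and 4.79 in the tumours, but did not pass (difference −0.67, SE 0.16; limma adjusted p = 0.0511). Its adjusted p was under 0.05 in 5 of 12 alternative settings, and over all of them it ran from 0.0221 to 0.298.

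Fancb, a core subunit encoded on the X chromosome, was uneven among the tumours. The controls had 4.53 and 4.07 and the tumours 4.93, 5.40 and 6.72, a spread of 1.80 among the tumours that was the widest of all measured members. The difference of 1.38 (SE 0.52) did not pass the test (limma adjusted p = 0.166), and the control mean was below the lower quartiles of all probe sets on those arrays (4.35 and 4.33), where a value was not shown to be above background. Fanca, Fancd2 and Fanci, the last 2 being the targets of Fancl, had differences of 0.08, 0.28 and 0.39, none of which passed. The log2 ratio of Fancl to Fancd2 stood −1.48, −1.28 and −2.11 from its control mean in the tumours, and that to Fanci −1.54, −1.46 and −2.19, all beyond the controls. The control mean of Fancd2 also lay under the lower quartile, so its level, and with it the ratio to Fancd2, was not shown to be above background. Of the 6 measured Fanconi genes, 1 fell and 0 rose. Their median was 0.18, against −0.02 over all genes tested, but it was −0.0035 without tumour 3, against −0.04 over all genes, and 0.09 without control 1.

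Mgmt, the only member that reverses a lesion in a single step, had values of 7.58 and 7.93 in the controls and 6.61, 6.90 and 6.85 in the tumours. The tumours were all lower than both controls. It fell by 0.97 on the log2 scale (95% confidence interval −1.37 to −0.56; SE 0.17; limma adjusted p = 0.022), a level 1.95-fold lower. The call was lost without control 1, control 2 or tumour 2 (limma adjusted p = 0.105, 0.191 and 0.0503).

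Nucleotide excision repair, which cuts out bulky lesions such as those of ultraviolet light, gave the only rise. The 2 controls had Ddb1 values of 10.07 and 10.15 and the tumours 10.79, 11.23 and 11.30, all of them higher. The difference was 0.999 (SE 0.18, 95% confidence interval 0.55 to 1.45; limma adjusted p = 0.026). The call was lost without control 1 (0.203), control 2 (0.193) or tumour 2 (limma adjusted p = 0.0749). Ddb2, its partner in damage recognition, overlapped between the groups, with 6.78 and 6.66 in the controls and 7.19, 6.93 and 6.32 in the tumours. The log2 ratio of Ddb1 to Ddb2 was 0.21, 0.91 and 1.59 above its control mean in the tumours, against −0.10 and 0.10 in the controls.

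The rest of this pathway did not pass the test. Ercc5, the nuclease that cuts on the 3′ side of a lesion, had values of 8.02 and 7.66 in the controls and 7.23, 7.23 and 7.44 in the tumours (difference −0.54, SE 0.16; limma adjusted p = 0.0952). Ercc1 and Ercc4 form the nuclease of the 5′ side, with differences of 0.37 and 0.02. The helicases Ercc2 and Ercc3 had differences of 0.06 and 0.38 and the damage sensor Xpc −0.16. Xpa, which verifies the lesion, ranged widely among the tumours (8.26, 8.63 and 7.83) around control values of 8.22 and 8.06. Over the 9 measured genes, 1 rose and 0 fell. The median of 0.10 was unstable: it was −0.0029 with arrays shifted to a common median, 0.02 without control 2, 0.03 without tumour 2, 0.17 without control 1 and 0.27 without tumour 3.

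**Figure D2:**
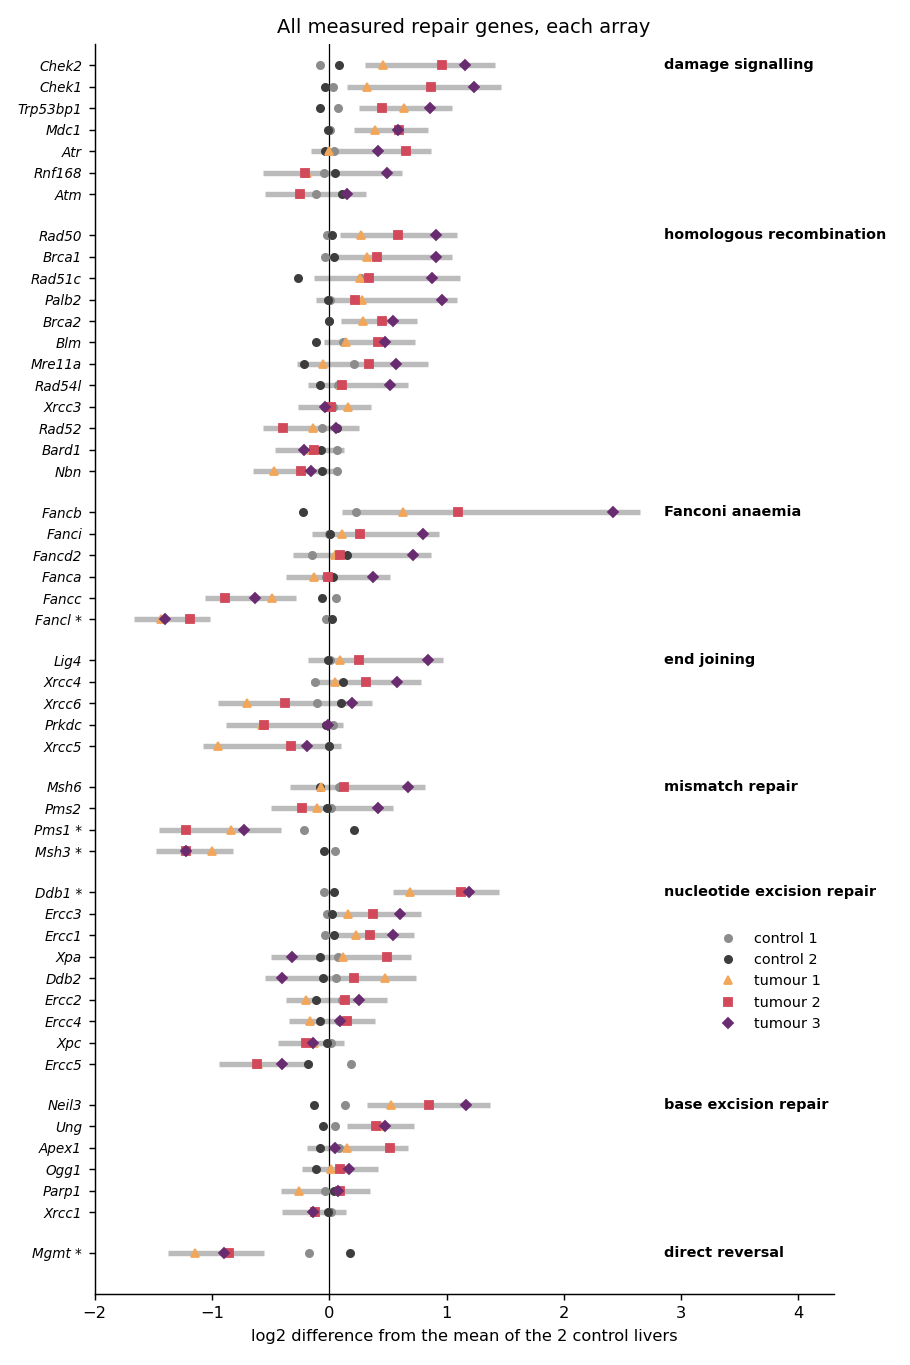
Log2 difference of every array from the mean of the 2 control livers for the 50 measured genes, grouped by pathway, with grey bars for the 95% confidence interval of the fitted tumour minus control difference. Asterisks mark the 5 genes past the test, and in damage signalling and homologous recombination most tumour points lie to the right of 0.

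Most members in damage signalling had higher means in the tumours without passing the test. Of the 7 measured, 6 had a higher mean in the tumours, 4 had an unadjusted p under 0.05 (all higher), and limma called 0. Chek2, the checkpoint kinase that ATM activates, had values of 4.65 and 4.82 in the controls and 5.19, 5.69 and 5.90 in the tumours (difference 0.86, SE 0.23; limma adjusted p = 0.0682). Chek1, the checkpoint kinase that ATR activates, had 4.64 and 4.57 in the controls and 4.93, 5.48 and 5.84 in the tumours (0.81, SE 0.27; limma adjusted p = 0.124). In both kinases every tumour was above the controls, tumour 1 the least.

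Mdc1, the scaffold that gathers repair factors on marked chromatin, had values of 6.22 and 6.21 in the controls and 6.61, 6.81 and 6.80 in the tumours (0.53, SE 0.13; limma adjusted p = 0.0552). Trp53bp1, which protects broken ends and favours end joining, had 6.49 and 6.34 in the controls and 7.05, 6.86 and 7.28 in the tumours (0.65, SE 0.16; limma adjusted p = 0.0591). Neither pair of groups overlapped. The apical kinases Atm (−0.12) and Atr (0.36) and the ubiquitin ligase Rnf168 (0.03) overlapped between the groups. The median of damage signalling was 0.53, and in tumours 1, 2 and 3 it was 0.32, 0.60 and 0.59. With the dimmest 40% of genes left out it was 0.36.

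In homologous recombination, which copies the missing sequence from the sister chromatid, 9 of 12 measured genes had a higher mean in the tumours and 0 passed limma's test, while 3 had an unadjusted p under 0.05. Brca2, which loads the recombinase onto single-stranded DNA, had values of 5.27 and 5.27 in the controls and 5.56, 5.72 and 5.81 in the tumours (0.43, SE 0.13; limma adjusted p = 0.105). Rad50, of the complex that first holds broken ends, had 6.84 and 6.88 in the controls and 7.13, 7.45 and 7.77 in the tumours (0.59, SE 0.20; limma adjusted p = 0.138). In both genes all tumours were above the controls.

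The partners of these genes were less uniform. Of the other subunits of the end-holding complex, Mre11a had a difference of 0.28 and Nbn of −0.29, the latter with all tumours below the controls. Brca1 had a difference of 0.55 and Bard1, with which it forms a ubiquitin ligase, one of −0.17. Their log2 ratio lay 0.48, 0.53 and 1.13 above its control mean in the tumours, against −0.11 and 0.11 in the controls. Bard1 had 3 probe sets, with differences of −0.17, −0.09 and 0.11, so its direction depends on the probe set, and those of Nbn were −0.29 and −0.16. Palb2, which links Brca1 to Brca2, and the recombinase paralog Rad51c had differences of 0.49 each, from control means under the lower quartile. The helicase Blm (0.34) and the translocase Rad54l (0.24) were higher in every tumour than in the controls, while Rad52 (−0.16) and Xrcc3 (0.04) overlapped. None of these passed the test. The median of homologous recombination was 0.31, but it was 0.04 with the dimmest 40% of genes left out.

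End joining, which religates breaks without a template, held 5 measured genes, none of which passed limma's test or an unadjusted p of 0.05. Xrcc5 and Xrcc6 code for the Ku subunits that bind the ends. For Xrcc5 both controls stood at 8.71 and the tumours at 7.76, 8.38 and 8.52 (−0.49, SE 0.24; limma adjusted p = 0.28), all lower, with tumour 1 the lowest. Xrcc6 had 6.99 and 7.19 in the controls and 6.39, 6.72 and 7.29 in the tumours, which overlapped. Prkdc, the kinase that Ku recruits, had 6.14 and 6.07 in the controls and 5.53, 5.55 and 6.10 in the tumours, so that tumours 1 and 2 were lower and tumour 3 lay between the controls. Its difference was −0.38 (limma adjusted p = 0.324). Without tumour 3 it was −0.57 and passed (limma adjusted p = 0.0376). Xrcc4 and Lig4, which form the ligase complex, had differences of 0.31 and 0.39. The median was −0.29, and it was −0.57, −0.33 and 0.19 in tumours 1, 2 and 3. It was −0.09 without tumour 1, −0.19 without control 2 and −0.54 without tumour 3.

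Base excision repair, which removes small base lesions, held 6 measured genes, of which limma called 0 and 2 had an unadjusted p under 0.05. Ung, the glycosylase that removes uracil, had values of 5.99 and 5.89 in the controls and 6.38, 6.34 and 6.42 in the tumours (0.44, SE 0.12; limma adjusted p = 0.0728). Neil3, a glycosylase of oxidised bases found mostly in dividing cells, had 4.41 and 4.15 in the controls and 4.81, 5.13 and 5.45 in the tumours (0.85, SE 0.21; limma adjusted p = 0.0617). The tumours were above the controls in both genes, and the control mean of Neil3 lay under the lower quartile. Apex1, the endonuclease of abasic sites, had 8.69 and 8.53 in the controls and 8.77, 9.13 and 8.66 in the tumours. The glycosylase Ogg1 (0.09), the break sensor Parp1 (−0.03) and its scaffold Xrcc1 (−0.13) had the smallest differences of the group. The 95% confidence interval of Parp1 ran from −0.41 to 0.35.

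**Figure D3:**
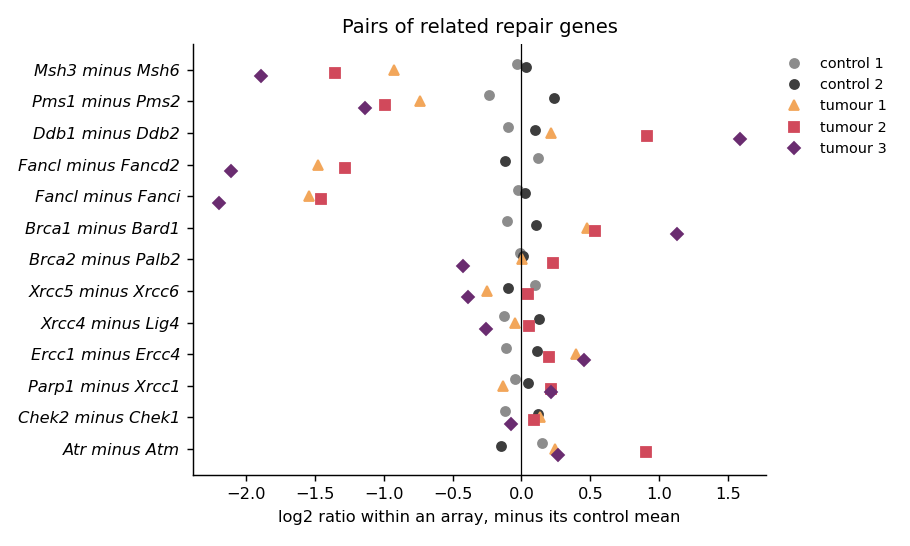
Log2 ratio of related repair genes within each array, minus the mean ratio of the 2 control livers, for 13 pairs of genes. The tumours lie beyond both controls for Msh3 with Msh6, Pms1 with Pms2, Fancl with Fancd2 and Fanci, and Ddb1 with Ddb2, and overlap them for Xrcc5 with Xrcc6 and Xrcc4 with Lig4.

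The pairs were picked with the values known and are given without a test. Of the 13, the tumours lay beyond both controls in 8, but the share among other gene pairs was not computed. The 8 include the pairs of the called genes Fancl, Msh3, Pms1 and Ddb1, whose own groups were already separate. The mean shift of the ratio was −1.73 for Fancl with Fanci and −1.39 for Msh3 with Msh6. It was −0.20 for the Ku subunits, −0.08 for Xrcc4 with Lig4 and −0.06 for Brca2 with Palb2, all overlapping the controls. A ratio within an array shows unequal change of its genes and not which of them was constant.

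The tumours differed among themselves in these genes. Tumour 3 had the highest value of the 3 tumours for 35 of 50 members (70%, against 46.6% of all genes), and tumour 1 the lowest for 32 (64%, against 37.5% of all genes). This order was not particular to the members. In a second list of 120 measured repair genes, described below, tumour 3 was highest for 80 and tumour 1 lowest for 68. The medians of that list were −0.13, −0.03 and 0.15 in tumours 1, 2 and 3. The median over all members was 0.03, 0.14 and 0.42 in tumours 1, 2 and 3, and 0.17 for the mean of the tumours, against −0.02 for all genes tested. For homologous recombination it was 0.15, 0.28 and 0.53, and for the Fanconi genes −0.04, 0.04 and 0.54. Excision repair showed no such spacing, with 0.12, 0.21 and 0.09 for nucleotide excision repair and 0.08, 0.24 and 0.12 for base excision repair.

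Transcripts of cell division were likewise highest in tumour 3 and lowest in tumour 1 by the median of each list. Of 24 measured genes of DNA replication and S phase, 6 rose and 2 fell, with medians of 0.48, 0.89 and 1.38 in tumours 1, 2 and 3. Of 24 mitotic genes, 13 rose and 0 fell, with medians of 0.67, 1.29 and 1.62. The replicative helicase subunits Mcm6 (2.60) and Mcm3 (1.82) and the mitotic regulators Ect2 (2.63), Cdk1 (1.495) and Prc1 (1.63) rose, whereas the replication factor Mcm10 fell by 1.98. The control mean of Prc1 lay under the lower quartile. Without control 2 all 6 calls were lost (limma adjusted p between 0.0507 and 0.168). Without control 1 that of Mcm10 held (limma adjusted p = 0.0354) and the others were lost (between 0.0997 and 0.132). Markers of other cell types also differed among the tumours. All 8 T cell markers were highest in tumour 3. The summed level of 9 endothelial markers was 12.05, 11.11 and 10.05 in tumours 1, 2 and 3, against 11.23 and 11.42 in the controls, and all 9 were lowest in tumour 3. The summed level of 9 stellate cell markers was 11.89, 11.07 and 10.00 in the tumours, against 11.01 and 10.99 in the controls, and 8 of the 9 were lowest in tumour 3. That of 7 cholangiocyte markers was 8.52, 8.47 and 9.37, against 7.82 and 7.80. Their median difference ran the other way, at 0.68, 0.51 and 0.37 in tumours 1, 2 and 3. Of the 7, 4 were lowest and 2 highest in tumour 3. The part of dividing cells or of any of these cell types in the values of the repair genes was not tested.

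**Figure D4:**
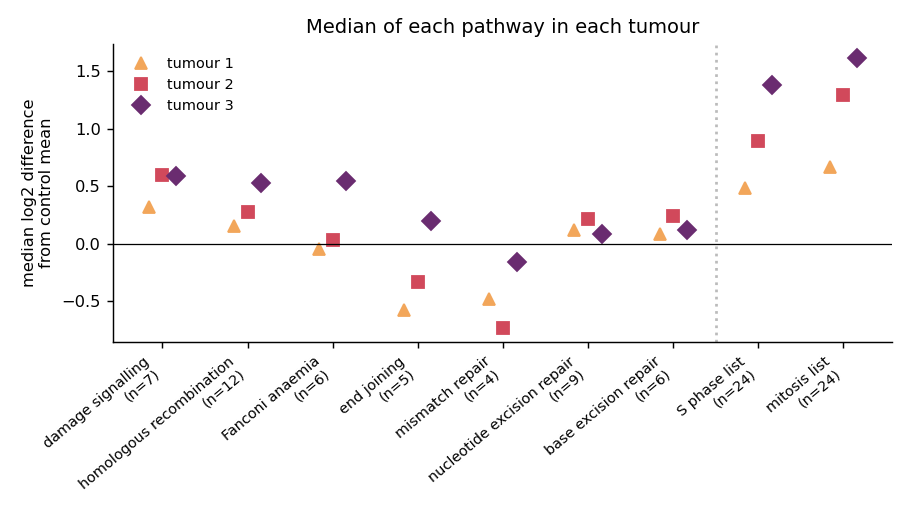
Median log2 difference from the control mean in each tumour, for the measured genes of each repair pathway and, right of the dotted line, for S phase and mitosis genes. Tumour 3 is highest and tumour 1 lowest for homologous recombination, the Fanconi genes, end joining, S phase and mitosis, and the excision repair pathways lie between 0.08 and 0.24 in all tumours.

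Further genes of the same pathways were examined from a second list of 135 names, of which 120 were measured. Limma called 2 risen and 3 fallen. These 5 of 120 are 4.17%, a smaller share than the 10.6% of all genes, and the median was −0.04. Lig1, the ligase that seals replicated and repaired strands, rose by 1.16, with 6.97, 7.05 and 7.61 in the tumours against a control mean of 6.05 (SE 0.22; limma adjusted p = 0.0275). Pold4, a subunit of DNA polymerase delta, rose by 1.02, from 6.95 and 7.15 to 8.41, 8.07 and 7.75. Lig1 and Pold4 stood in the group of mismatch repair and resynthesis, whose 12 measured genes had a median of 0.40. In this list the median was −0.05 for damage signalling, where 8 of 19 had a higher mean. It was −0.06 for homologous recombination (11 of 24) and −0.10 for the Fanconi genes (5 of 14), against member medians of 0.53, 0.31 and 0.18 for these 3 pathways. End joining, nucleotide excision repair, base excision repair, and direct reversal with damage tolerance had −0.01, −0.08, −0.06 and 0.05.

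The 3 fallen genes belong to other steps. Rnf169, which competes for the chromatin mark that Rnf168 writes, fell by 0.79 (limma adjusted p = 0.0299), Aptx, which removes abortive ligation products, by 0.73 (0.0318), and Shprh, a ubiquitin ligase of damage tolerance, by 0.53 (limma adjusted p = 0.0457). Each was lower in all tumours than in the controls. With arrays shifted to a common median, or with quantile normalisation repeated, this list gave 1 risen and 8 fallen. All 5 calls were lost without control 1, without control 2 and without tumour 2, where 0 of the 120 were called, while 4 rose and 1 fell without tumour 1, and 3 rose and 7 fell without tumour 3.

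Some repair genes share their start region with a neighbour on the opposite strand. Of the 50 measured members, 43 had an entry in the GRCm38.p6 promoter table. No neighbour could be sought for Rad50, Nbn, Fancd2, Prkdc, Xpc, Ercc3 and Ddb2, which had none. Of the 43, 16 had an opposite-strand start within 1000 bases upstream (or overlapping by up to 200 bases). Both genes of 15 such pairs were measured. Pms1 and Ormdl1, a regulator of sphingolipid synthesis, start 67 bases apart, and both fell. Ormdl1 had values of 7.18 and 7.02 in the controls and 6.43, 6.08 and 6.02 in the tumours, a difference of −0.92 (SE 0.17; limma adjusted p = 0.0244) beside −0.93 for Pms1. The Ormdl1 call was lost without control 1, control 2 or tumour 2 (limma adjusted p = 0.201, 0.168 and 0.0716). The Pms1 sequence printed above therefore runs through the space between the starts. In the other pairs the genes did not pass together: Zfyve21 fell by 1.16 (limma adjusted p = 0.011) beside an Xrcc3 difference of 0.04, and no other neighbour passed. The Zfyve21 call was lost without control 1 or control 2 (0.101 and 0.0668). Differences of member and neighbour had the same sign in 6 of 15 pairs, with Pearson's r = 0.13 across pairs measured on the same 5 arrays.

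**Figure D5:**
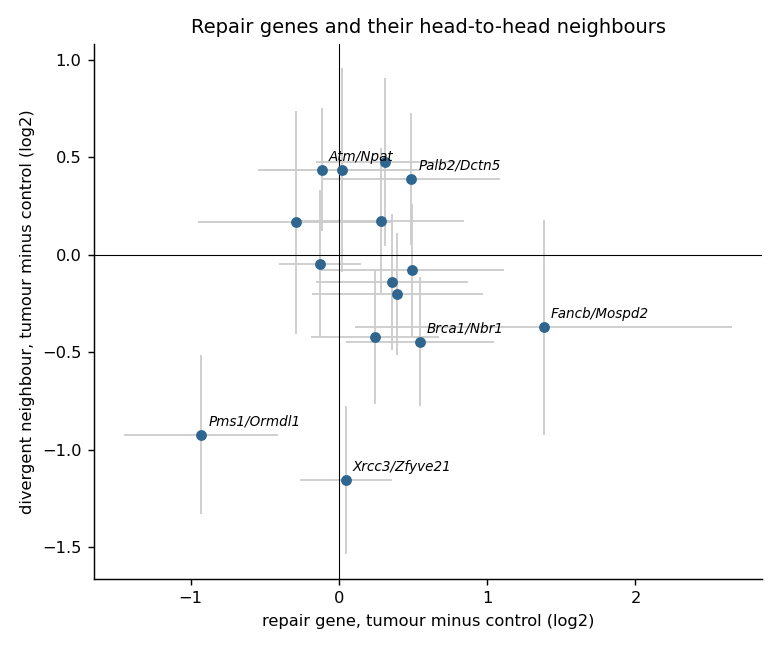
Tumour minus control log2 difference of 15 repair genes (x axis) and of their divergent neighbours (y axis), with 95% confidence intervals from the same fit. Pms1 with Ormdl1 stands far out in the lower left, where Xrcc1 with Pinlyp lies near 0, and Xrcc3 with Zfyve21 shows a lower neighbour beside a repair gene near 0.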

How the data were processed

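The series holds 5 arrays, 2 of control livers and 3 of Hdac3-null liver tumours, put into groups by their labels' genotype and tissue. The deposited table holds log2 expression values, normalised by the authors. The submitters' processing notes name GCOS and RMA, without versions or roles. RMA compresses differences of dim genes. The sources used here give no genome build and no batch. Columns of other samples numbered 0.

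Of 28853 probe sets, 21789 had 1 symbol in the platform's probe table, and 1621 had several and 5443 none; only the first were used, which gave 19938 genes. Tumours were compared with controls by limma 3.58.1 (lmFit, eBayes; R 4.3.3) across all genes, without covariates, on 3 residual and 2.98 prior degrees of freedom. Two-sided p-values were adjusted over all genes by Benjamini-Hochberg. Replicates are biological, per the labels. Tables were joined in Python 3.11.15 (pandas 2.3.3) and plotted with matplotlib 3.10.9. The procedure was tested on simulated data. Precision is limited by the number of arrays.

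The members and gene lists were chosen with earlier results of these data known. Values per array are given for called members, those with adjusted p under 0.1, the smallest p and the largest difference of each pathway, the 5 widest tumour ranges and the 3 highest means, and for called genes of the second list. Alternatives were other scalings, a filter on the dimmest 40%, the mean of probe sets, a robust variance trend, array weights, a replicate block, no shared spread, other thresholds and leaving out each array. The lone control was then assumed to vary like the tumours. B cell, neutrophil, cholangiocyte, endothelial and stellate marker lists had median differences of −0.05, 0.12, 0.48, −0.01 and 0.81, and T cell markers 0.58.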

Additional observations from a re-analysis of the deposited data

How the results depend on the processing

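The dim filter, the mean of probe sets, the robust trend and no shared spread leave the differences of the 5 called genes unchanged. Their groups do not overlap, so leaving out 1 array cannot turn their sign. Directions therefore had little room to move, and they held under all 13 alternatives. Fancl and Msh3 passed in 10 of them, Mgmt and Ddb1 in 9 and Pms1 in 7, and all 5 failed with no shared spread (adjusted p from 0.0771 to 0.219) and without either control. Of 50 repair genes, 1 rose and 4 fell in the main setting. Array weights, which trust tumour 3 least, gave 6 risen and 5 fallen (22% of the members, against 16.3% of all genes), no shared spread 0 and 0, a threshold of adjusted p under 0.1 gave 6 and 6, and an unadjusted p of 0.05 gave 12 and 6. Leaving out each array gave 0 to 4 risen and 0 to 5 fallen. Without control 1, 0.647% of all genes were called, and without control 2, 0.542%, so the loss extended to the whole array. Without tumour 1, Chek1, Chek2 and Neil3 were also called risen and Fancc fallen (adjusted p = 0.0485). Fancc was further called with quantile normalisation repeated (0.0352), a common median (0.0283), the robust trend (0.046) and array weights (0.0221). Without tumour 3, Prkdc was called fallen (0.0376). Over 10 alternatives other than the dim filter, pathway medians of the Fanconi genes ran from −0.0035 to 0.29. Those of nucleotide excision repair ran from −0.0029 to 0.27 and of end joining from −0.54 to −0.09. Those of homologous recombination ran from 0.19 to 0.45 and of damage signalling from 0.43 to 0.59. The dim filter removes members. It gave 0.04 for homologous recombination, 0.36 for damage signalling, 0.09 for base excision repair and −1.34 for the Fanconi genes. Medians of the other pathways did not move with it.

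Of 120 other repair genes, 2 rose and 3 fell. The counts were 1 and 8 with quantile normalisation repeated or arrays shifted to a common median, 2 and 5 with dim genes left out or probe sets averaged, 7 and 8 with array weights, 0 and 0 with no shared spread, 7 and 8 at adjusted p under 0.1, and 11 and 16 at an unadjusted p of 0.05. Leaving out each array gave 0 to 4 risen and 0 to 7 fallen. Causes were not tested. Differences of Ddb2 and Xpa turned sign with arrays shifted to a common median (−0.0029 and −0.0006), and they ranged from −0.0943 to 0.343 for Ddb2 and from −0.0995 to 0.304 for Xpa when each array was left out, below 0 for Ddb2 without tumour 1 and for Xpa without tumour 2.

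The replicate numbers name different mice, and same-numbered arrays did not deviate together (correlations 0.004 and −0.013). With the number as a replicate block, tumour 3 has no control of its number and drops out of the comparison. Differences then equal those without tumour 3 (−1.31 for Fancl in both). The members gave 1 risen and 3 fallen with this block (8%, against 11.9% of all genes). Pms1 stood at limma adjusted p = 0.0501, and the other list gave 2 risen and 7 fallen. Signal limits 5 members, Palb2, Rad51c, Fancb, Fancd2 and Neil3, whose control means lay under the lower quartile, so that their differences may be understated. The 45 genes that did not pass had 95% confidence intervals of a median half-width of 0.44 log2 units.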

Other observations

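Of the divergent pairs in which the neighbour did not pass the test, Atm and Npat, a coactivator of histone genes, start 376 bases apart. Npat had log2 values of 5.33 and 5.56 in the controls and 5.85, 5.88 and 5.90 in the tumours (difference 0.44, SE 0.13; limma adjusted p = 0.093), beside −0.12 for Atm. Brca1 and the autophagy receptor gene Nbr1 start 152 bases apart, and Nbr1 had 10.21 and 10.30 in the controls and 9.93, 9.84 and 9.67 in the tumours (difference −0.45; limma adjusted p = 0.0993), beside 0.55 for Brca1. In both pairs the tumour values of the neighbour lay beyond the controls, and no difference within a pair was tested.

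Fancb, with the widest tumour range among the members, starts 217 bases from Mospd2 on the opposite strand. Mospd2 had 8.40 and 8.30 in the controls and 8.32, 8.03 and 7.59 in the tumours, so that tumour 3 was the lowest for Mospd2 and the highest for Fancb. The Mospd2 difference was −0.37 (SE 0.23; limma adjusted p = 0.383).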
